A study of Mus musculus with 8 samples.

Results

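The 10 genes described here encode transcription factors of the oligodendrocyte lineage. They are Olig1, Olig2, Sox10, Sox8, Nkx2-2, Nkx6-2, Myrf, Zfp488, Zfp536 and Tcf7l2, and they were taken by symbol from the 48709 genes in the count files. All 10 were found, and 9 of them were among the 16525 genes with enough counts to be tested. Nkx6-2 was below that limit and is described from its counts.

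Oligodendrocytes wrap axons of the central nervous system in myelin, and they arise from radial glia through proliferating oligodendrocyte precursor cells (OPCs). The basic helix-loop-helix factors Olig1 and Olig2 set up the lineage, the SoxE factors Sox10 and Sox8 act throughout it, and Nkx2-2, Myrf, Zfp488 and Tcf7l2 take part in the step from precursor to myelin-forming cell. Several of these genes are also used outside the lineage, Olig1 and Olig2 in ventral progenitors, Sox8 in astrocytes, Sox10 in Schwann cells, Zfp536 in neurons and Tcf7l2 in thalamic neurons.

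By RNA sequencing, 4 dcKO_hGFAP-Cre and 4 control cortices were compared at P3, to ask what loss of BAF155 and BAF170 does to gene expression in the early postnatal cortex. BAF155 and BAF170, encoded by Smarcc1 and Smarcc2, are scaffolding subunits of the BAF (mSWI/SNF) chromatin remodeling complex. The mutants carried floxed alleles on both copies of each gene (BAF155 fl/fl and BAF170 fl/fl) together with hGFAP-Cre, a transgene with Cre recombinase under a human GFAP promoter. The study's methods describe the controls as heterozygous for both floxed alleles with the same Cre, while its design text calls them wild types, so Cre alone and loss of a single copy may be common to both groups. All mice were on a C57BL/6J background, and dorsal telencephalon (dTel) is the tissue given in the methods. Cre of this line is active in radial glia of the dTel and in the cells that descend from them, so cells that entered the cortex from elsewhere can keep intact alleles, and bulk RNA holds both kinds.

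The libraries held 21126713 to 31805395 counts (controls) and 22002784 to 32110285 counts (mutants). Values are given in CPM, a gene's count scaled to a common library total after TMM normalization, which corrects for differences in composition, and as mean ± SD with n = 4 per group. Genes were tested by the quasi-likelihood method of edgeR, p-values were adjusted over all 16525 genes (Benjamini-Hochberg), and a gene was called at an adjusted p under 0.05. Differences on the log2 scale are mutant over control, with their standard error (SE). Both deleted genes were lower in every mutant than in every control. Smarcc1 was counted at 144 to 170 CPM in controls against 73.6 to 86.9 CPM in mutants, and Smarcc2 at 469 to 500 against 256 to 319 CPM.

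Some mutant libraries stood apart. Mutant replicates 1 and 2 held 609 and 1170 CPM of summed choroid plexus markers, led by Ttr, against 3.88 to 13.3 CPM in controls and 20.5 and 3.98 CPM in mutant replicates 3 and 4. Mutant replicate 3 had 1714 CPM of summed astrocyte markers, above the controls at 1242 to 1370 CPM, whereas mutant replicates 1, 2 and 4 held 805, 725 and 693 CPM. For part of the results, fits without mutant replicate 3 or with mutant replicates 3 and 4 only are therefore given as well.

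The factors moved in both directions in dcKO_hGFAP-Cre cortex. Of the 9 tested, 7 were called lower (Zfp488, Sox10, Myrf, Nkx2-2, Sox8, Olig1 and Olig2) and 2 were called higher (Tcf7l2 and Zfp536), where 18.9% of all tested genes were called lower and 18.6% higher (37.5% in either direction). Zfp488 fell furthest, to 21.1% of its control level, and Tcf7l2 rose most of these 9, to 151%. In 6 of the 9 every mutant lay below every control and in 1 every mutant lay above, against 17.7% and 16.7% of all tested genes (34.4% in either direction). The median log2 fold change of the 9 was -0.95, beside 0.02 over all tested genes. The members were chosen with earlier results of these data known, so these shares carry no test. In bulk tissue, fewer cells of a type and less RNA per cell cannot be told apart. Without mutant replicate 3 the counts were again 7 lower and 2 higher, but with mutant replicates 3 and 4 as the only mutants, which leaves out the libraries rich in Ttr, the calls were 3 lower (Sox10, Myrf and Zfp488) and 1 higher (Tcf7l2).

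**Figure D1:**
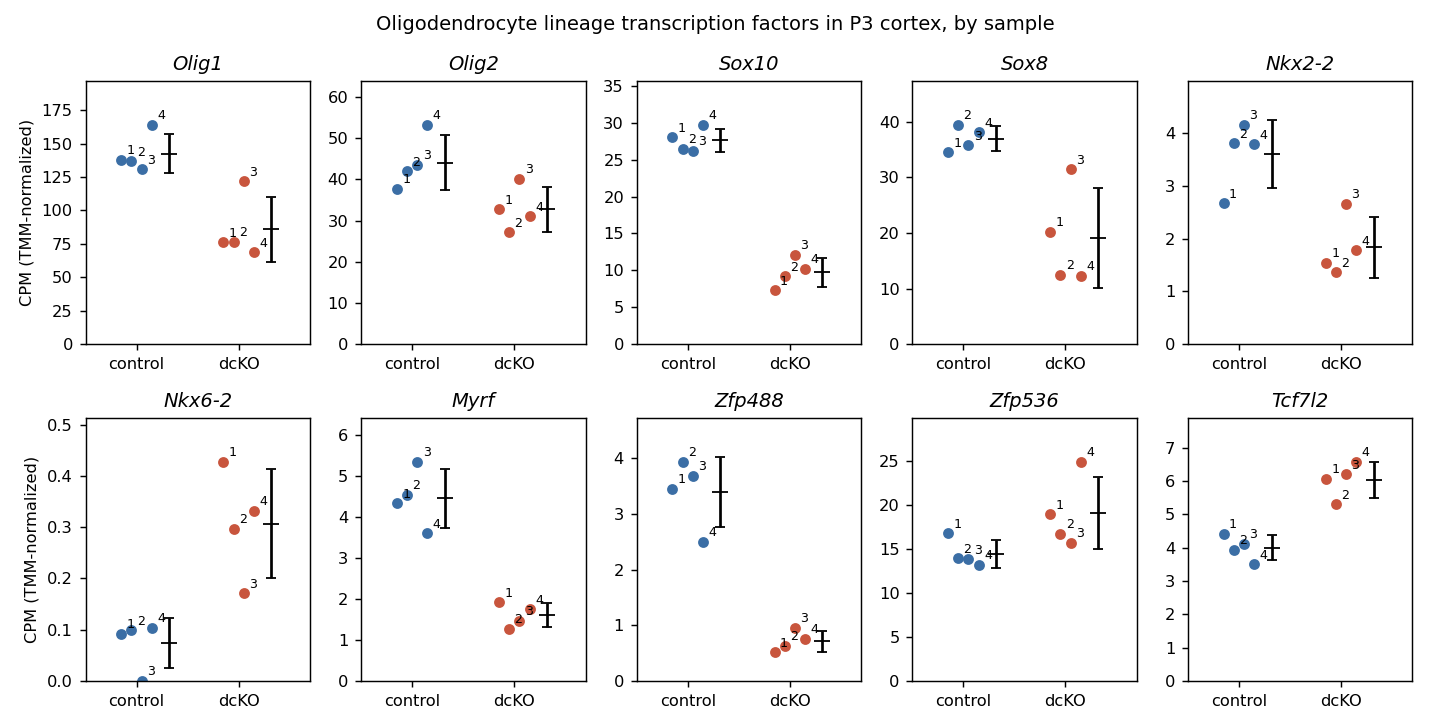
Expression of each of the 10 factors in CPM (linear axes from 0), with 1 numbered point per sample and the mean ± SD of 4 samples beside the points, for control (blue) and dcKO_hGFAP-Cre (red) P3 cortex. Sox10, Myrf and Zfp488 separate widely between the groups, from 26.2 CPM or more to 12.1 CPM or less in the case of Sox10, while the points of Olig2 and Zfp536 overlap.

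The members shown are the one that fell furthest, Nkx2-2, the one with the smallest fall and Tcf7l2, which rose most among the 9 tested. Stretches upstream of a RefSeq start are printed below so that their letters can be compared. They are the 250 bases before the RefSeq start (GRCm38.p6), read 5′ to 3′ on the gene's strand, and capitals mark matches on either strand to CANNTG (the E-box, a core recognised by basic helix-loop-helix proteins such as Olig1 and Olig2), AACAAT (a Sox core) or ACAAAG (a core shared by Sox and Tcf proteins).
Zfp488, chr14:33978765-33979014, minus strand: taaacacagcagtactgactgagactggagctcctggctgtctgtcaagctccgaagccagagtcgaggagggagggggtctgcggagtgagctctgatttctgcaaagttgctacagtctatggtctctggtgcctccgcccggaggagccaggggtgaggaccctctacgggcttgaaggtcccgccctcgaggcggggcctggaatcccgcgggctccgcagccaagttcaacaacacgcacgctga
Nkx2-2, chr2:147186403-147186652, minus strand: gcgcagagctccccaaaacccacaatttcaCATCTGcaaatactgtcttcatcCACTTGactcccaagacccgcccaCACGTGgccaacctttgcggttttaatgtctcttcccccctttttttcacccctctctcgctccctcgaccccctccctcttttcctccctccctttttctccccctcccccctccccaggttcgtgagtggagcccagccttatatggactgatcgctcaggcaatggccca
Olig2, chr16:91225300-91225549, plus strand: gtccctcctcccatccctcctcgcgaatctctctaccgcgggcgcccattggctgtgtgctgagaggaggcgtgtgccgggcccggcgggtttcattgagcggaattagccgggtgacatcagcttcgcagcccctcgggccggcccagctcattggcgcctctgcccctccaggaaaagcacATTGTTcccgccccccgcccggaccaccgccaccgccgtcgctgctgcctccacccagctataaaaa
Tcf7l2, chr19:55741560-55741809, plus strand: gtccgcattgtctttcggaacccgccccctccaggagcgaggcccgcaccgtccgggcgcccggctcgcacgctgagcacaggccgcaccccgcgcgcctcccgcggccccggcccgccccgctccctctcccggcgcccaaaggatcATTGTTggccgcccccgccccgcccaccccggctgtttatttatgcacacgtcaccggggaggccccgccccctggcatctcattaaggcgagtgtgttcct

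The Zfp488 window held none of these letters, and the Nkx2-2 window held 3 E-boxes, the most matches among the members' windows. The Olig2 and Tcf7l2 windows held 1 AACAAT each, seen there as its reverse complement. Of the 10 members, 7 had entries, which gave 8 windows because Tcf7l2 has 2 annotated starts. Among those not printed, the windows of Sox8 and Nkx6-2 each held 1 E-box, the downstream Tcf7l2 window held 1 ACAAAG and the Zfp536 window held none. Over all 32851 mouse windows of this length, 66.2% held CANNTG, 9.42% held AACAAT and 16.5% held ACAAAG, and no 2 of these motifs shared bases in the members' windows. The Olig2 window was 66.8% G and C with 22 CpG, the first Tcf7l2 window 72.8% with 30 CpG and the Zfp488 window 61.6% with 14 CpG, all above the medians over all windows of 52.4% and 6 CpG. By the annotated gene spans, the Nkx2-2 window lies inside that gene (147177546 to 147194243) and not upstream of all of it. The Zfp536 window and the downstream Tcf7l2 window also lie inside their genes. The end of the Olig2 window lies inside Olig2, which starts at 91225457. A match is a description of the letters and not a binding site.

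Olig2, the factor that specifies OPCs and stays on through the lineage, changed least of the members that fell. It lies on chromosome 16 of mm10 from 91225457 to 91228677 and has 2 exons. It was counted at 37.7, 41.9, 43.5 and 53.2 CPM in control replicates 1 to 4 and at 32.7, 27.1, 40.1 and 31.0 CPM in mutant replicates 1 to 4. The groups overlapped, since mutant replicate 3 lay above control replicate 1 while the other 3 mutants lay below all controls. Olig2 went from 44.1 ± 6.57 to 32.7 ± 5.43 CPM, a change of -0.43 on the log2 scale (SE 0.13, adjusted p = 0.0218 by edgeR), and the exact two-sided permutation test over samples gave p = 0.0571. This call was lost without control replicate 4 (-0.33, adjusted p = 0.0675 by edgeR), without mutant replicate 2 (-0.36, 0.0536), without mutant replicate 4 (-0.39, 0.051) under scaling by library totals (-0.31, 0.0741) and with mutant replicates 3 and 4 only (-0.31, 0.185).

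Olig1, the partner of Olig2 that promotes maturation and lies 41095 bases downstream of it, had the highest level of the members per kilobase. Control cortex held 138, 137, 131 and 164 CPM and mutant cortex 76.1, 76.6, 122 and 68.7 CPM of this single-exon gene (chromosome 16 from 91269772 to 91271933). Every mutant lay below every control, and mutant replicate 3 came close to the controls while the other 3 mutants stood together far below. The mean fell from 142 ± 14.6 to 85.7 ± 24.1 CPM, a change of -0.73 on the log2 scale (SE 0.16, adjusted p = 0.00606 by edgeR; exact permutation p = 0.0286, the smallest that 4 against 4 samples allow). Without mutant replicate 3 it was -0.95 (0.09, adjusted p = 1.20e-05 by edgeR), and with mutant replicates 3 and 4 only it was -0.59 (0.20, 0.0735).

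Sox10, the SoxE factor that marks OPCs and oligodendrocytes and activates myelin genes, was lower by a wide margin. It lies on chromosome 15 from 79154908 to 79165240 on the minus strand and has 5 exons. Controls held 28.0, 26.5, 26.2 and 29.7 CPM and mutants 7.35, 9.24, 12.1 and 10.2 CPM. The groups were far apart, and the highest mutant was again replicate 3. Sox10 fell from 27.6 ± 1.61 to 9.73 ± 1.99 CPM, to 35.3% of control, a change of -1.50 on the log2 scale (SE 0.14, adjusted p = 9.76e-06 by edgeR). It ranked 158 from the lowest of the 16525 fold changes tested.

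Sox8, a SoxE relative of Sox10 that acts beside it in oligodendrocytes, was the most uneven member among the mutants. It lies on chromosome 17 from 25565892 to 25570686 and has 3 exons. Controls held 34.5, 39.4, 35.7 and 38.1 CPM and mutants 20.2, 12.5, 31.4 and 12.3 CPM. No mutant reached the controls, but replicate 3 lay just under them and replicates 2 and 4 far below. The mean fell from 36.9 ± 2.23 to 19.1 ± 8.99 CPM, a change of -0.95 on the log2 scale (SE 0.28, adjusted p = 0.0281 by edgeR), which became -1.30 (0.16, 8.85e-05) without mutant replicate 3. The call was lost without control replicate 2, 3 or 4 (adjusted p = 0.0608, 0.0606 and 0.0656 by edgeR), without mutant replicate 4 (-0.77, 0.0555), with no filter on low counts (-0.95, 0.11) and with mutant replicates 3 and 4 only (-0.76, 0.134). The antisense gene 2810468N07Rik shares 329 exon bases with Sox8 and was at 6.51 ± 0.853 (control) and 5.64 ± 2.16 CPM (mutant). It gathered 145, 92, 248 and 132 counts in mutant replicates 1 to 4, highest in replicate 3 as for Sox8. Any sharing of reads between the pair was not tested.

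The members thus differed in how mutant replicate 3 stood to the other mutants. It was the highest mutant for 6 of the 7 members called lower, the exception being Myrf, and it lay within 0.23 of the control mean on the log2 scale for Olig1, Olig2 and Sox8. It was also the mutant with the highest summed astrocyte markers, 0.40 above the control mean on the log2 scale where the other mutants lay between -0.69 and -0.90. Sox8 is also expressed in astrocytes, and the part of these cells in the values of mutant replicate 3 was not tested. For Sox10 and Zfp488 the same library lay far below the controls, at -1.18 and -1.83 relative to their mean on the log2 scale.

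**Figure D2:**
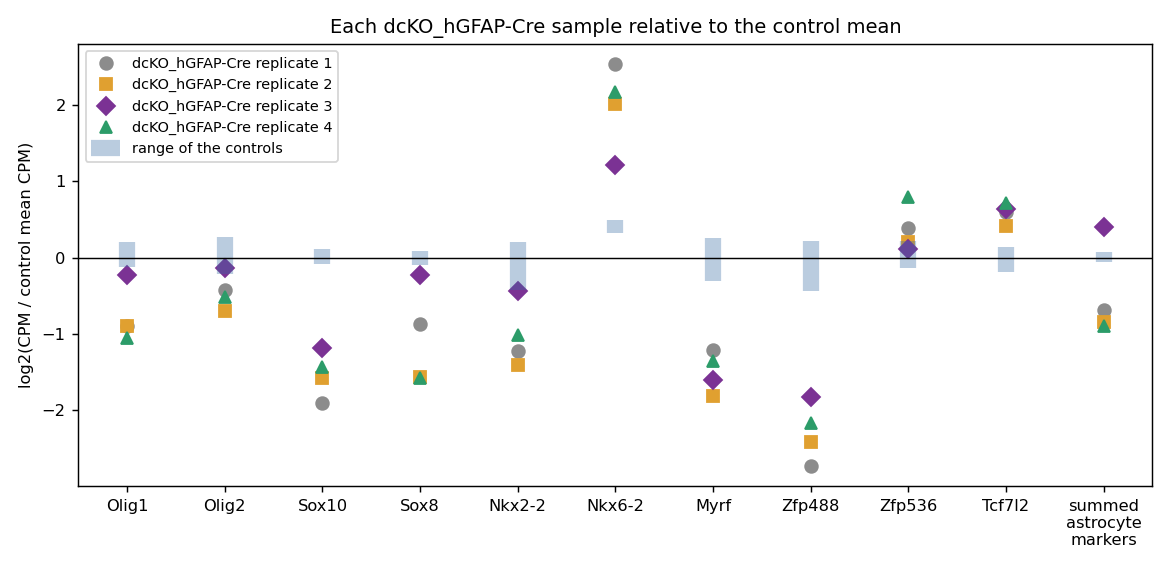
Each dcKO_hGFAP-Cre sample as log2 of its CPM over the control mean, for the 10 factors and for the summed CPM of 8 astrocyte markers, with shaded bars for the range of the controls (the control of Nkx6-2 with 0 counts is not drawn). Replicate 3 (diamonds) is the highest mutant for Olig1, Olig2, Sox10, Sox8, Nkx2-2 and Zfp488 and for the astrocyte markers, and the mutants keep to 1 side of 0 for every factor.

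Of the homeodomain factors, Nkx2-2 was called lower, while Nkx6-2, too sparse for the main test, had more counts in the mutants. Nkx2-2, which is switched on as OPCs begin to differentiate, was at 2.67, 3.80, 4.15 and 3.78 CPM in controls and at 1.54, 1.36, 2.66 and 1.78 CPM in mutants (chromosome 2 from 147177546 to 147194243). These values rest on 58 to 125 counts in controls and 32 to 78 in mutants, and the groups touched without overlapping, at control replicate 1 and mutant replicate 3. The mean fell from 3.60 ± 0.643 to 1.83 ± 0.578 CPM, a change of -0.97 on the log2 scale (SE 0.23, adjusted p = 0.00664 by edgeR), and was -0.70 (0.26, 0.0904) with mutant replicates 3 and 4 only. The antisense gene Nkx2-2os shares 278 exon bases with Nkx2-2 but had at most 10 counts in any library, and any sharing of reads between the pair was not tested.

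Nkx6-2, a repressor of ventral progenitors that is also found in myelinating oligodendrocytes, was barely detected. It gathered 2, 2, 0 and 3 counts in controls and 10, 7, 5 and 11 counts in mutants, or 0.0737 ± 0.0494 and 0.307 ± 0.106 CPM. Every mutant lay above every control (exact permutation p = 0.0286), on summed counts of 7 and 33. Nkx6-2 did not pass the filter on low counts, and where the filter was dropped edgeR gave a change of 2.04 on the log2 scale (SE 0.63, adjusted p = 0.0133) and DESeq2 one of 2.09 (SE 0.85, adjusted p = 0.0421), with wide errors at such counts. It lies on chromosome 7 from 139579376 to 139582797 and shares 246 exon bases with the opposite-strand gene Inpp5a, which was at 28.0 ± 2.29 (control) and 25.2 ± 2.91 CPM (mutant), and reads from the shared stretch cannot be assigned unless the counting used strand.

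Myrf and Zfp488 act when OPCs leave the cell cycle and mature, and both were low in control cortex at P3 and lower in the mutant. Myrf, the membrane-bound factor that drives myelin genes after self-cleavage, was at 4.33, 4.54, 5.35 and 3.61 CPM in controls and at 1.92, 1.27, 1.47 and 1.75 CPM in mutants. The groups did not overlap, and replicate 3 was not the highest mutant here. Myrf (chromosome 19 from 10208272 to 10240748, 26 exons) fell from 4.45 ± 0.714 to 1.60 ± 0.291 CPM, to 36% of control, a change of -1.47 on the log2 scale (SE 0.20, adjusted p = 1.43e-04 by edgeR).

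Zfp488, a zinc finger corepressor of the lineage that binds Olig2, was at 3.45, 3.94, 3.69 and 2.50 CPM in controls and 0.513, 0.636, 0.955 and 0.755 CPM in mutants. The lowest control lay well above the highest mutant, on 72 to 111 counts in controls and 12 to 28 in mutants. The mean fell from 3.39 ± 0.63 to 0.715 ± 0.188 CPM, a change of -2.22 on the log2 scale (SE 0.24, adjusted p = 3.42e-05 by edgeR), which ranked 43 from the lowest of the 16525 tested. It lies on chromosome 14 from 33967070 to 33978764, and its promoter window printed above holds none of the motifs searched.

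Zfp536 and Tcf7l2 were higher in the mutant. Zfp536, a zinc finger repressor first studied in neuronal differentiation, was at 16.8, 13.9, 13.8 and 13.2 CPM in controls and at 18.9, 16.7, 15.7 and 24.9 CPM in mutants (chromosome 7 from 37472135 to 37773641). The groups overlapped, with 2 mutants above every control and the other 2 below control replicate 1. The mean went from 14.4 ± 1.65 to 19.0 ± 4.15 CPM, a change of 0.40 on the log2 scale (SE 0.15, adjusted p = 0.0498 by edgeR; exact permutation p = 0.0857). This call lay at the threshold and was lost in 10 of 17 alternatives, among them limma-voom (0.40, adjusted p = 0.0604) and the fits without control replicate 2, 3 or 4 or mutant replicate 1, 2 or 4 (0.26 to 0.46, adjusted p by edgeR between 0.059 and 0.13).

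Tcf7l2, the Wnt pathway effector that is used in differentiating oligodendrocytes and in thalamic neurons, was at 4.42, 3.94, 4.12 and 3.51 CPM in controls and 6.07, 5.30, 6.21 and 6.58 CPM in mutants (chromosome 19 from 55741820 to 55933654). Every mutant lay above every control, with little spread in either group. It rose from 4.00 ± 0.381 to 6.04 ± 0.54 CPM, a change of 0.60 on the log2 scale (SE 0.15, adjusted p = 0.00678 by edgeR).

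**Figure D3:**
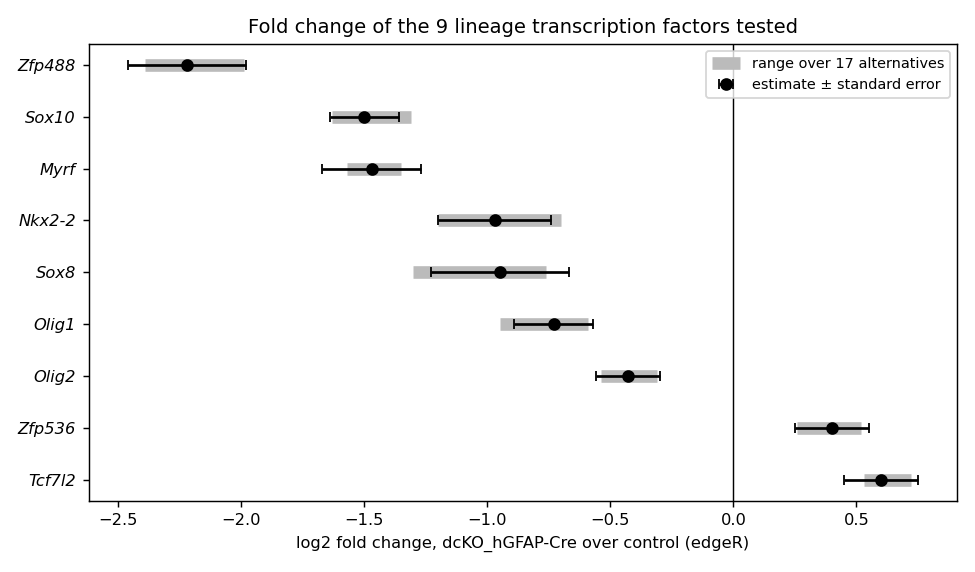
Log2 fold change of the 9 tested factors, dcKO_hGFAP-Cre over control, as the edgeR estimate (points) ± standard error (bars), with the range over 17 alternative fits in grey. The estimates run from -2.22 for Zfp488 to 0.60 for Tcf7l2, and no alternative moves a factor across 0.

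Sequencing lanes held both groups, since lane 5 carried replicates 1 and 2, lane 6 carried replicate 3 and lane 7 carried replicate 4 of each. The direction of each of the 9 tested members was the same in all 3 lanes. Sox10 differed between mutants and controls by -1.71, -1.11 and -1.54 on the log2 scale in lanes 5, 6 and 7, Zfp488 by -2.69, -1.95 and -1.73 and Tcf7l2 by 0.44, 0.59 and 0.91. Olig1 differed by only -0.10 and Sox8 by only -0.18 in lane 6, the lane of mutant replicate 3, against -0.85 and -1.18 in lane 5, and lanes 6 and 7 hold 1 sample of each group.

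Members were ordered by level as CPM per kilobase of exon, because longer genes gather more reads. In control cortex Olig1 stood highest at 65.9 ± 6.8 CPM per kilobase, followed by Olig2 (17.4 ± 2.6), Sox8 (11.8 ± 0.72) and Sox10 (9.04 ± 0.53), which did not overlap with one another. The other 6 lay at or below 1.56 ± 0.18 CPM per kilobase, the level of Zfp536, and among them Zfp536 and Nkx2-2, Zfp488 and Myrf, and Myrf and Tcf7l2 overlapped in their samples. Nkx6-2 was lowest at 0.0386 ± 0.026 CPM per kilobase. In mutant cortex the upper 4 kept their order, at 39.7 ± 11, 12.9 ± 2.1, 6.13 ± 2.9 and 3.19 ± 0.65 CPM per kilobase, but Sox8 now overlapped with Sox10 and Sox10 with Zfp536 (2.06 ± 0.45). Tcf7l2 came before Nkx2-2, Myrf and Zfp488 in the mutant order, at 0.688 ± 0.062 CPM per kilobase beside 0.638 ± 0.2, 0.187 ± 0.034 and 0.166 ± 0.044, although its samples overlapped with those of Nkx2-2.

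To set the members against one another, 11 ratios within each sample were compared, as log2 of CPM with 0.25 CPM added, a constant that weighs most on genes of low level. Sox10 over Olig2 was -0.66 ± 0.17 in control and -1.73 ± 0.27 in mutant cortex, a difference of -1.07. Every mutant lay below every control in this ratio. Sox10 also lay lower relative to Pdgfra, the PDGF receptor of OPCs, which itself went from 135 ± 12.8 to 97.4 ± 6.01 CPM (log2 fold change -0.47, adjusted p = 0.00109 by edgeR), with ratios of -2.28 ± 0.19 and -3.31 ± 0.37 that did not overlap. Olig2 over Pdgfra was -1.62 ± 0.34 in control and -1.58 ± 0.25 in mutant cortex, a difference of 0.04 with overlapping groups (exact permutation p = 0.857).

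Other ratios set members of the later steps against Sox10. Myrf over Sox10 was -2.58 ± 0.30 in control and -2.42 ± 0.45 in mutant cortex and overlapped, so the falls of these genes differed by less than the spread between samples. Tcf7l2 over Sox10 was -2.71 ± 0.19 and -0.65 ± 0.29 and Nkx6-2 over Sox10 was -6.44 ± 0.20 and -4.16 ± 0.57, and neither overlapped. The difference of the sparse Nkx6-2 was 2.28 here, 3.86 with 0.01 CPM added and 1.71 with 1 CPM added, and that of Tcf7l2 was 2.07, 2.12 and 1.93. Zfp488 over Sox10 differed by -0.42, Sox8 over Sox10 by 0.45, Olig1 over Olig2 by -0.33 and Zfp536 over Olig2 by 0.81. The groups overlapped in all 4. The difference of Zfp488 over Sox10 turned with the constant, from -0.72 with 0.01 CPM added (exact permutation p = 0.0286) to 0.08 with 1 CPM added. Nkx2-2 over Olig2 differed by -0.48 without overlap. Each ratio that separated had an exact permutation p = 0.0286, the smallest that 4 against 4 samples allow, and after Benjamini-Hochberg adjustment over the 11 ratios it was 0.0629, so no ratio passed 0.05. An adjusted value under 0.05 would have needed at least 7 of the 11 ratios at this smallest p.

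**Figure D4:**
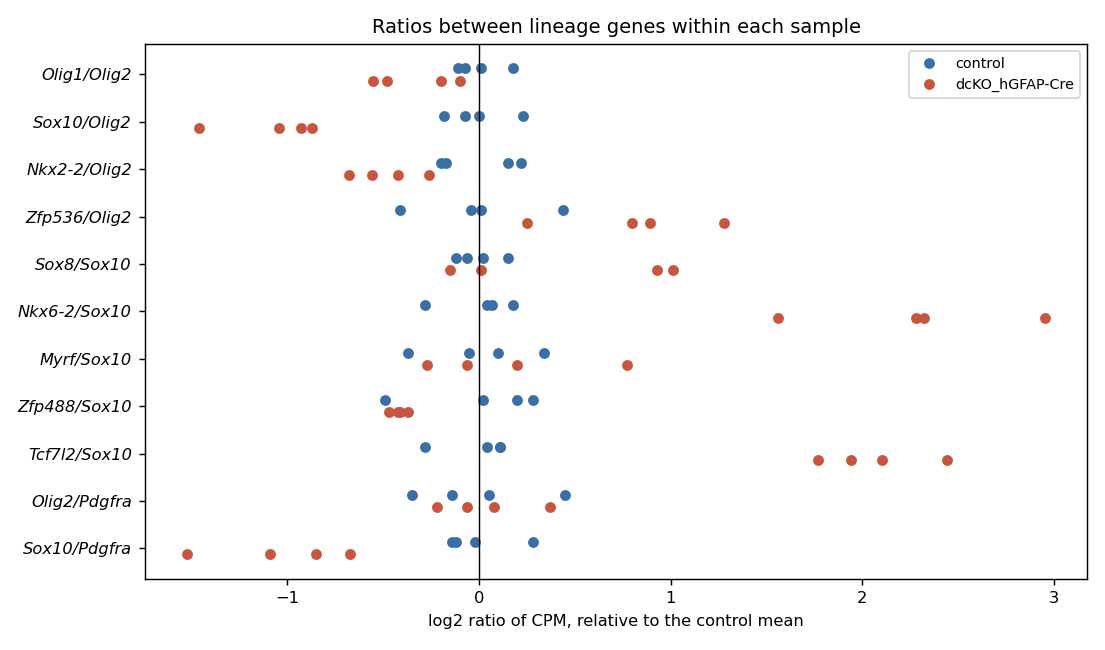
The 11 ratios between lineage genes in each sample, as log2 ratio of CPM relative to the control mean, for control (blue) and dcKO_hGFAP-Cre (red). Sox10/Olig2, Nkx2-2/Olig2, Nkx6-2/Sox10, Tcf7l2/Sox10 and Sox10/Pdgfra separate the groups, whereas Myrf/Sox10 and Olig2/Pdgfra are interleaved.

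Other genes of the lineage were counted from lists. Over all tested genes 18.9% were called lower and 18.6% higher, with a median log2 fold change of 0.02. Of 10 precursor genes, 8 were called lower and 0 higher, with a median log2 fold change of -0.66. Gpr17, a receptor of committed precursors (-1.98, adjusted p = 1.83e-04 by edgeR), and Neu4, a sialidase (-1.89, 0.00104), fell furthest, while Vcan, a matrix proteoglycan (-0.05, 0.73), and Lhfpl3 (-0.22, 0.114) were not called. Of 16 differentiation and myelin genes, 14 could be tested and 7 were called lower and 0 higher, with a median of -0.58. Enpp6 and Bcas1, which mark newly forming oligodendrocytes, had log2 fold changes of -4.43 and -3.17 (adjusted p = 5.49e-06 and 4.35e-07 by edgeR). Cldn11, a tight junction gene of myelin, was at 0.65 and not called (0.584). Its mutants spread widely, from 0.332 to 11.7 CPM, around controls at 2.36 to 5.05 CPM.

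Regulators outside the member list did not move mainly 1 way. Of 16 other activators 5 were called lower and 4 higher, with a median log2 fold change of -0.03. All tested genes had 18.9% called lower and 18.6% higher, with a median of 0.02. The lowest were Klf6 (-0.87, from 147 ± 9.45 to 80.0 ± 6.63 CPM) and Klf9 (-0.85, from 40.9 ± 2.11 to 22.6 ± 8.72 CPM), Krüppel-like factors. The highest were St18 (1.44, from 4.57 ± 1.37 to 12.3 ± 1.47 CPM), a zinc finger factor, and Sox2 (0.71, from 56.3 ± 3.57 to 92.3 ± 8.1 CPM), a factor of neural progenitors. All 4 were called, with adjusted p = 1.13e-05, 0.0156, 2.20e-04 and 6.81e-05 by edgeR in that order.

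Of 8 repressors of oligodendrocyte differentiation 2 were called lower and 1 higher, with a median log2 fold change of 0.03. These counts lay near the shares over all tested genes, 18.9% lower and 18.6% higher. The SoxD gene Sox5, which is also expressed in deep-layer neurons, fell from 129 ± 23.8 to 44.8 ± 5.61 CPM (-1.52, adjusted p = 7.61e-06 by edgeR), and Id2, an inhibitor of basic helix-loop-helix factors, fell from 239 ± 14.2 to 152 ± 25.7 CPM (-0.65, 7.63e-04). Its relative Id4 rose from 23.8 ± 4.38 to 40.7 ± 3.35 CPM (0.78, adjusted p = 6.10e-04 by edgeR). Hes5, a Notch target, was at 0.17 and was not called (0.705).

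**Figure D5:**
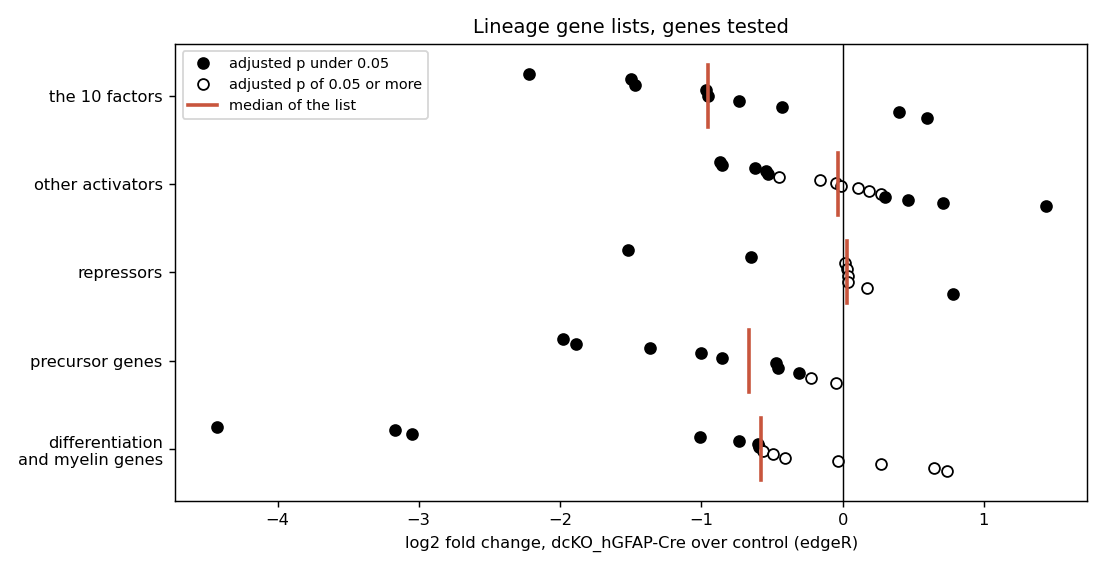
Log2 fold change, dcKO_hGFAP-Cre over control, of every tested gene in the member list and the 4 other lineage lists, with filled points for an adjusted p under 0.05 by edgeR, open points for the rest and a red bar for the median. The medians are -0.95 for the members, -0.03 for other activators, 0.03 for repressors, -0.66 for precursor genes and -0.58 for differentiation and myelin genes.

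Markers of other cell types moved between the groups as well. For scale, 18.9% of all tested genes were called lower and 18.6% higher. Every mutant lay below every control in 17.7% of tested genes and above in 16.7%. Summed markers of cortical excitatory neurons, led by Neurod6, were present in all samples and lower in the mutants (1403 to 1597 CPM in control, 646 to 809 in mutant, 5 of 6 genes called lower). Summed markers were higher in every mutant for striatal neurons (122 to 175 and 364 to 703 CPM, 5 of 8 called higher, led by Ppp1r1b), for ventral progenitors and interneurons (408 to 438 and 583 to 683 CPM, 7 of 7, led by Dlx1) and for microglia (68.7 to 95.5 and 122 to 146 CPM, 4 of 6, led by Csf1r). Olig1 and Olig2 are expressed in ventral progenitors too, and their calls are in the direction opposite to those markers. Endothelial markers were lower (150 to 192 and 88.4 to 149 CPM, 4 of 5 called lower). Cldn5, the endothelial marker of highest level, was the 1 not called (log2 fold change -0.16, adjusted p = 0.601 by edgeR). Summed astrocyte and meningeal markers overlapped between the groups. The part of any of these cells in the members' differences was not tested.

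Markers of thalamic and midbrain neurons, which use Tcf7l2, rose and fell. Their summed level was 133 to 161 CPM in controls and 162 to 226 CPM in mutants, led by Slc17a6 (log2 fold change 0.24, adjusted p = 0.177 by edgeR). Of 10 genes 5 were called higher and 2 lower, beside 18.6% and 18.9% of all tested genes. Shox2, which had the largest rise among the 10, went from 0.0854 ± 0.142 to 15.9 ± 2.19 CPM. The 2 called lower were Prkcd (from 37.9 ± 0.839 to 19.0 ± 0.848 CPM) and Rora (from 21.1 ± 1.87 to 15.4 ± 2.72 CPM). Shox2, Prkcd and Rora were named after their values were seen. Tcf7l2 separated the groups in the same direction as this sum, and the part of such cells in its rise was not tested. Schwann cells also express Sox10, and the summed level of 6 markers was 98.7 to 142 CPM in controls and 22.5 to 35 CPM in mutants, but it was carried by Pou3f1, which neurons express too. The Schwann cell genes Dhh and Foxd3 were under 1 CPM in every sample, while Egr2 (3.27 ± 0.174 and 4.20 ± 0.949 CPM) and Prx (5.51 ± 0.581 and 5.54 ± 0.405 CPM) were detected in both groups and were not called. The part of such cells in the fall of Sox10 was not tested.

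Genes beside the members on the chromosome were compared next. Of 28 genes that overlap a member or lie next to it on mm10, 8 were tested and 2 were called, both next to Myrf. Among all tested genes 37.5% were called in either direction, so 2 of 8 is no more than that share. Tmem258, a subunit of the oligosaccharyltransferase, lies 448 bases from Myrf and went up from 33.7 ± 3.41 to 43.8 ± 8.37 CPM (log2 fold change 0.38, adjusted p = 0.0422 by edgeR), a call lost without 6 of the 8 replicates in turn. Dagla, which makes the endocannabinoid 2-arachidonoylglycerol, lies 4517 bases away on the other side and went down from 84.4 ± 10.2 to 62.6 ± 12.2 CPM (-0.43, adjusted p = 0.021 by edgeR), a call lost without 4 of the 8. The groups overlapped for both, and neither change approached the -1.47 of Myrf. Polr2f, an RNA polymerase subunit gene 3134 bases from Sox10, was at 51.4 ± 6.79 and 58.3 ± 10.2 CPM (0.18, adjusted p = 0.292 by edgeR).

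The genes most like Sox10 and Tcf7l2 across the 8 libraries were found by the root mean square difference of log2 CPM after subtracting the control mean, among 13519 protein-coding genes. Nearest to Sox10 were Sla, a signalling adaptor, and Lpl, lipoprotein lipase, each at a difference of 0.12, then Frmpd1, the deubiquitinase gene Usp43 and the receptor gene Mas1 at 0.13. Their log2 fold changes ran from -1.42 for Lpl to -1.62 for Frmpd1. Of the other members Myrf came nearest to Sox10 at 0.35, with 179 genes nearer, followed by Nkx2-2 (0.46, 366 nearer) and Zfp488 and Sox8 (0.50 each), while Olig2 was farther at 0.79 with 1786 genes nearer. Nearest to Tcf7l2 were Epha10, an Eph receptor gene, at 0.08, then Fam114a2, the kinetochore gene Zwilch and Ss18 at 0.09 and Sowaha at 0.10, and Zfp536 lay at 0.21 with 608 genes nearer. All of these measures come from the same 8 libraries and are set mostly by the difference between the groups, so they describe likeness of pattern and carry no test.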

How the data were processed

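RNA-seq of P3 cortex from 4 control and 4 dcKO_hGFAP-Cre mice was analysed. The authors prepared TruSeq libraries, aligned the reads to mm10 and used featureCounts. The authors deposited raw counts per gene, with no normalization. The aligner, the annotation and the strand setting are not given in the sources used here, so counts of overlapping genes are uncertain. Of 48709 gene identifiers, 48349 matched GENCODE annotation of the same build, which gave symbols, positions and exon lengths. Samples were grouped by their labels, which do not say whether mice were littermates, and the p-values measure the spread between these samples. No pair of replicates agreed within sampling noise.

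Genes were tested with edgeR (version 4.0.16, R version 4.3.3), with TMM normalization, its filter on low counts (minimum count 10), robust quasi-likelihood fits and Benjamini-Hochberg adjustment over 16525 genes. DESeq2 (version 1.42.0), the study's tool, and limma-voom (limma version 3.58.1) were alternatives, as were other scalings, filters, blocks and each replicate left out. Single values and ratios were compared with exact two-sided permutation tests over 70 arrangements. Promoter windows came from RefSeq.

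Members and lists were chosen with earlier results of these data known. Named besides the members were the 2 lowest and 2 highest fold changes of each lineage list, the leading gene of each marker list that separated the groups, called genes at the members' loci and the 5 genes nearest to Sox10 and to Tcf7l2. Some genes that this rule names are not reported here. On simulated counts with 200 genes changed 2-fold, edgeR recovered 69.5% of them over the 16368 genes in that step, just under a first limit of 70% that was then dropped, with 7.33% false calls. DESeq2 gave 16.6% false calls. The simulation changed a far smaller share of genes than the 37.5% called in these data, so its rates may not hold for them. At this depth 3 counts or fewer, as in each control of Nkx6-2, carry large counting error.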

Additional observations from a re-analysis of the deposited data

Results flagged for a closer look

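Olig1 in mutant replicate 3 stood apart from the other mutants, at 122 CPM beside 68.7 to 76.6 CPM, with a gap to the nearest that was 0.85 of the group's range. Nkx6-2 in control replicate 3 was at 0 CPM, a gap of 0.884 of the range, which on 0 counts beside 2, 2 and 3 is a difference of few reads. Both exceed Dixon's 95% critical value for 4 samples. Of 46 groups examined 2 exceeded it, and about 2.3 would by chance.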

How the results depend on the processing

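No called result changed direction. Over 17 alternatives Sox10, Myrf, Zfp488 and Tcf7l2 kept their calls, with largest adjusted p = 3.35e-04, 0.00368, 0.00186 and 0.0313. With mutant replicates 3 and 4 only, an alternative chosen after seeing the data, log2 fold changes were -0.59 for Olig1, -0.31 for Olig2, -0.76 for Sox8, -0.70 for Nkx2-2 and 0.50 for Zfp536, none called. That fit called 3 members lower and 1 higher, 3 other activators lower and 2 higher, and 1581 genes lower and 1388 higher against 3128 and 3074. The cause was not tested, though fewer samples entered. Under library totals Olig2 was at -0.31 (not called), 7 other activators were called higher and so was 1 differentiation and myelin gene. Sox8 was at -0.95 (not called) without the filter. Zfp536 was at 0.40 (not called) under limma-voom and DESeq2's size factors, which left 1 member called higher.

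The labels do not say whether the numbers 1 to 4 pair the samples, although samples of the same number shared a lane. Same-number correlations of deviations were 0.17, -0.07, 0.21 and -0.02, and not every sample correlated best with its own number. Such correlations cannot settle whether samples were paired. With the replicate block 2982 genes were called lower and 2932 higher, and Zfp536 was at 0.39 (adjusted p = 0.0561 by edgeR), leaving 1 member called higher, and no other member's call changed.

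Leaving out each replicate gave -0.95 to -0.62 for Olig1, -0.54 to -0.33 for Olig2, -1.63 to -1.39 for Sox10, -1.30 to -0.77 for Sox8, -1.20 to -0.86 for Nkx2-2, -1.57 to -1.37 for Myrf, -2.39 to -2.11 for Zfp488, 0.26 to 0.48 for Zfp536 and 0.53 to 0.65 for Tcf7l2, with 5 to 7 members called lower and 1 to 2 higher. Nkx2-2 over Olig2 differed by -0.29 with 1 CPM added (exact permutation p = 0.0571). Zfp488 over Sox10 differed by -0.72 with 0.01 CPM added (0.0286) and by 0.08 with 1 CPM (0.714), a turn of an uncalled value, since Zfp488 lies near the added value.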

Other observations

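The following transcripts at the members' loci had too few counts to be tested and were named after their values were seen. Gm10863, an opposite-strand transcript that begins 801 bases from Sox10, gathered 14, 5, 8 and 7 counts in controls and 3, 4, 4 and 5 in mutants. In CPM every mutant lay below every control, at 0.146 ± 0.0181 against 0.35 ± 0.197 (SD, n = 4), where 17.7% of tested genes did so. Nkx2-2os, antisense to Nkx2-2, gathered 8, 2, 9 and 10 counts in controls and 1, 1, 9 and 2 in mutants, and its groups overlapped. Mutant replicate 3, which had the highest Nkx2-2 among mutants, also had the highest Nkx2-2os. Gm15966, which overlaps Olig1, had 0 counts in all 8 libraries.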
